A study of Mus musculus with 6 samples.

Results

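Chemokines and their receptors were examined in messenger RNA of Kupffer cells, the macrophages that live in the liver sinusoids. The genes were taken by symbol, as every row named Ccl, Ccr, Cxcl, Cxcr or Ackr with a number, or starting with Cx3c, plus Ccrl2, provided that its counts summed to at least 20 over the 6 libraries. The rule took 47 of 15458 rows, 27 ligands and 20 receptors, and left 6 matching rows under the minimum. Nearest to the minimum, Ccl20 with 29 counts was kept, and Ccl1 with 18 counts was not. All cells came from livers of C57BL/6 mice, labelled wild type, that carried tumours of Hepa1-6, a mouse hepatoma cell line, and were taken on day 18. The KC_EV group (3 libraries) had Hepa1-6 cells with an empty vector, and the KC_Epo group (3 libraries) had Hepa1-6 cells made to overexpress erythropoietin, the hormone of red cell formation. The sources used here do not give the age of the mice, the sorting gate or whether a library held cells of 1 or several mice. The p-values therefore rest on the spread among these libraries alone, which may be technical. The comparison asks how chemokine genes in Kupffer cells differed when the tumour produced erythropoietin.

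Chemokines are small secreted proteins that guide leukocytes along concentration gradients, and they are grouped by the spacing of their first cysteines into CC, CXC and CX3C types. They act through receptors that couple to inhibitory G proteins, while atypical receptors bind and remove chemokines without this signal. In the liver, Kupffer cells are a known source of chemokines that draw in monocytes, T cells and neutrophils.

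In KC_Epo, ligands of CCR2 and the ligands Ccl6 and Ccl24 were higher, and Ccl3, Ccl4, the ligands of CXCR3 and those of CCR4 were lower. Ccl6, a CC chemokine of myeloid cells, had the most counts of any member and rose 2.26-fold, from 533 ± 30.0 to 1207 ± 29.9 CPM (SD, n = 3 each). Ccl22, which attracts regulatory T cells, fell 5.43-fold, from 13.3 ± 1.27 to 2.46 ± 0.364 CPM. CPM are counts relative to library size after TMM scaling, which corrects for library composition; a value after ± is the SD of 3 libraries for a level and the SE of the fit for a log2 fold change. Of the 47 genes 42 passed the filter on low counts, and of these 9 were higher and 15 lower in KC_Epo at an adjusted p under 0.05 (edgeR quasi-likelihood test, adjusted over all 13120 genes tested). Over all genes tested 32.3% passed, 16.9% as higher and 15.4% as lower, against 57.1%, 21.4% and 35.7% of the 42. By type, 6 of 24 ligands were higher and 11 lower, 70.8% in all. Of 18 receptors 3 were higher and 4 lower, 38.9% in all, which is near the 32.3% of all genes tested. The libraries of the groups did not overlap for 9 genes that were higher and 19 that were lower, where 24.1% and 24.2% of all tested genes did so, 48.3% in both directions. Past a 2-fold change, 6 genes were called higher and 7 lower, against 2.72% and 6.68% of all tested genes. The median log2 fold change was -0.30 over the 42 genes and -0.0045 over all genes tested. The number that passed ranged from 20 to 25 as each library was left out in turn, and it was 25 without KC_EV 1 and KC_Epo 1 together.

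**Figure D1:**
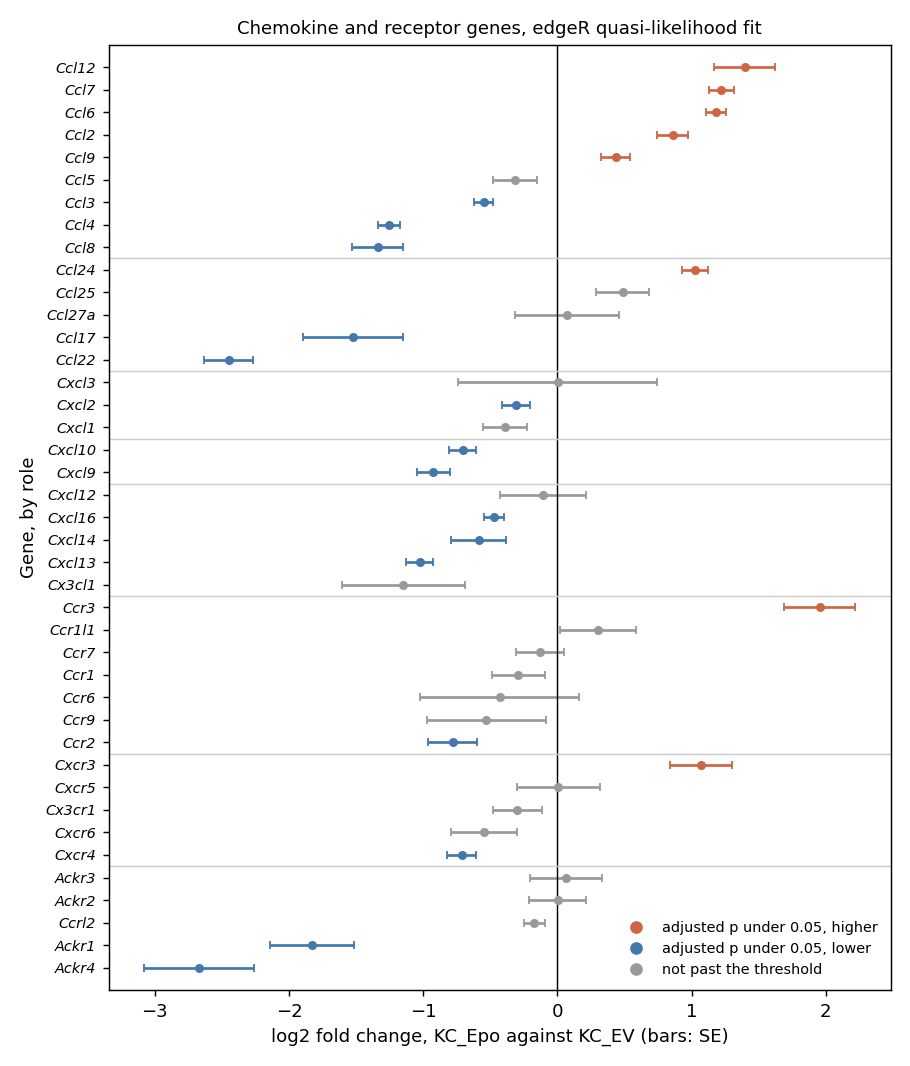
Log2 fold change of KC_Epo against KC_EV (x axis) for 41 of the 42 tested genes, ordered by role (y axis; grey lines part the roles), with bars for the SE of the fit and colours for the call. Ackr4 and Ccl22 lie farthest to the left, at -2.67 and -2.45, and Ccr3 farthest to the right, at 1.95.

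Total counts ran from 23201076 to 33280754 per library, and the 47 genes held 0.312 to 0.345% of them. Reads of Epo were absent from all KC_EV libraries (0 counts each) and numbered 29, 44 and 21 in KC_Epo 1, 2 and 3. The label of Kupffer cells was read against 15 markers, of which 12 were higher in KC_Epo, 1 (Adgre1) lower and 2 (Timd4 and C1qa) not past the test. Their summed level was 36456 to 39311 in KC_EV against 53972 to 62103 CPM in KC_Epo. Sums for other cells moved too: hepatocyte markers were 2745 to 3426 in KC_EV against 6398 to 21754 CPM in KC_Epo, sinusoidal endothelial markers 5439 to 6632 in KC_EV against 1905 to 3115 CPM in KC_Epo, and markers of mature dendritic cells 179 to 192 in KC_EV against 80.6 to 103 CPM in KC_Epo. In bulk RNA, fewer cells of a type and less RNA per cell cannot be told apart, here and for every gene below.

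**Figure D2:**
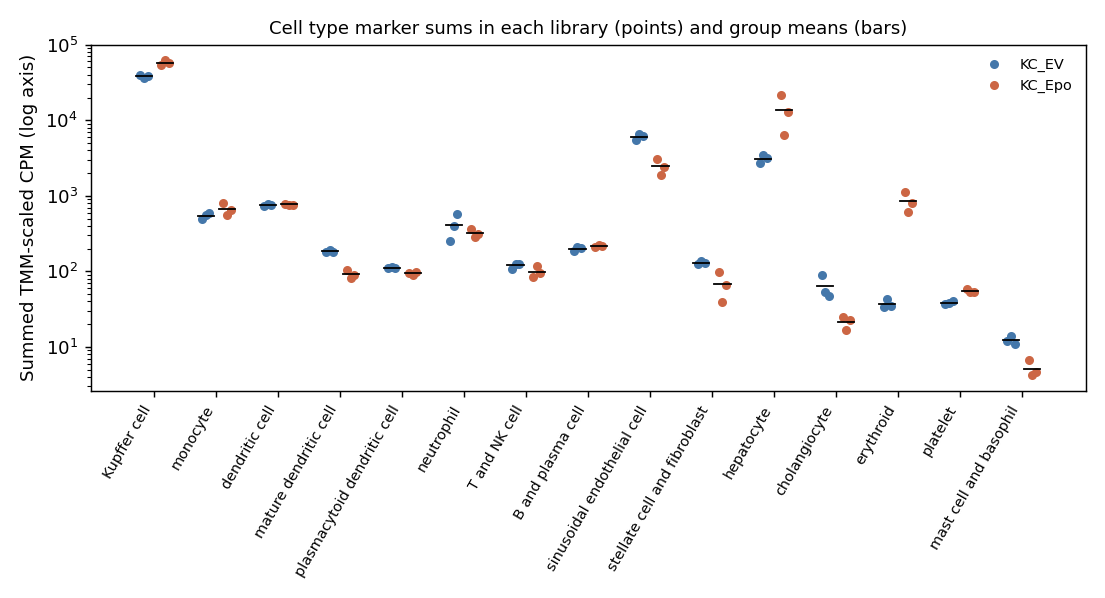
Summed TMM-scaled CPM of the marker genes of 15 cell types (x axis) in each library (points; log axis) with group means (bars). Kupffer cell markers are the highest sum in all 6 libraries. KC_EV and KC_Epo overlap for the monocyte, dendritic cell, neutrophil and T and NK cell sums. They lie apart for the other sums, narrowly so for B and plasma cells.

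Promoter sequences were searched for binding motifs of factors that are known to drive chemokine genes: NF-kB and AP-1, which act in inflammation, and the interferon motifs ISRE and GAS. RefSeq promoters of build GRCm38.p6, 250 bases before to 50 bases after the start site, were at hand for 38 of the 47 genes; this is another build than the authors' GRCm39. The NF-kB consensus stood in 10 of 38 (26.3%) against 8.18% of all 27025 promoters, on either strand, and AP-1 (TGANTCA) in 6 (15.8%) against 7.93%. The ISRE core (GAAA, 2 bases of any kind, GAAA) was in 2 (5.26%) against 3.49%, and GAS (TTCNNNGAA) in 4 (10.5%) against 8.47%. Of the promoters with an NF-kB match, 2 belonged to genes that were higher (Ccl9 and Ccr3), 2 to genes that were lower (Cxcl10 and Cxcl2) and 5 to genes that did not pass (Ackr2, Ccr1, Ccrl2, Cxcl1 and Cxcl3); Ccl20 was not tested. Those of the 4 that passed are shown, chosen after their values were seen, because the same motif stands in genes of both directions. Capitals mark a match to any of the 4 motifs; in Cxcl10 and Cxcl2, 2 NF-kB matches overlap with an offset of 1 base.
Cxcl10, chr5:92348840-92349139, minus strand: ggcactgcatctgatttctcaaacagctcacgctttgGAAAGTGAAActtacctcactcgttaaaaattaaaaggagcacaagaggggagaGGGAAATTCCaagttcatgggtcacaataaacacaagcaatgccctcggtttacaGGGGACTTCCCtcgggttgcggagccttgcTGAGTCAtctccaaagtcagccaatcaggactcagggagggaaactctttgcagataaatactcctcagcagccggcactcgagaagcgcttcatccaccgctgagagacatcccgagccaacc
Cxcl2, chr5:90903649-90903948, plus strand: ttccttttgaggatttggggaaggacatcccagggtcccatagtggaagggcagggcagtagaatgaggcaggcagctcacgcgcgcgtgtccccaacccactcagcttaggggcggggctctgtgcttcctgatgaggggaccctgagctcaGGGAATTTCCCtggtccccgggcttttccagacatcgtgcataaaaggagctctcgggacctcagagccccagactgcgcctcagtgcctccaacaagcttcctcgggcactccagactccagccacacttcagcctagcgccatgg
Ccl9, chr11:83578587-83578886, minus strand: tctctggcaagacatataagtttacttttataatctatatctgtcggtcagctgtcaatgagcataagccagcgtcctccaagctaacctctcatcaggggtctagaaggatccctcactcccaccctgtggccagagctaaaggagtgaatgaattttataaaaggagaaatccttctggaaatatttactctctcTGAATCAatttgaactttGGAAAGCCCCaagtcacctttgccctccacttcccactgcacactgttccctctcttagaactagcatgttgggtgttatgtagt
Ccr3, chr9:124021721-124022020, plus strand: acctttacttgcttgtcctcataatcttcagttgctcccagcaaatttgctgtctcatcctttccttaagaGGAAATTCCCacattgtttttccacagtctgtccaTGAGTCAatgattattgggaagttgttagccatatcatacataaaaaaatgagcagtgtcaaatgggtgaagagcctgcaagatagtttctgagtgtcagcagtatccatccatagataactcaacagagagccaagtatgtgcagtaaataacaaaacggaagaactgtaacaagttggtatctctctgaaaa
In the Cxcl10 promoter the ISRE match stands first, then the NF-kB matches and then the AP-1 match, while Ccl9 and Ccr3 each hold 1 NF-kB and 1 AP-1 match. A match describes these letters and is not a measured site.

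Among the inflammatory CC ligands, 5 of 9 were higher and 3 lower. Ligands of CCR2, the receptor that brings monocytes out of the blood, come first. Ccl2, the main monocyte attractant, stood at 86.0, 79.3 and 78.7 CPM in KC_EV 1 to 3 and 122, 173 and 148 CPM in KC_Epo 1 to 3. Every KC_Epo library was above every KC_EV library, and the log2 fold change was 0.86 ± 0.12 (adjusted p = 0.000424). Ccl7, a second CCR2 ligand, was measured at 27.7, 26.5 and 29.6 CPM in KC_EV 1 to 3 and 57.6, 69.3 and 68.4 CPM in KC_Epo 1 to 3, again without overlap, and rose by 1.22 ± 0.09 on the log2 scale (adjusted p = 2.41e-06). Ccl12, a mouse relative of Ccl2, had lower levels but the same pattern, at 3.40, 2.21 and 3.07 CPM in KC_EV 1 to 3 and 6.55, 8.36 and 7.93 CPM in KC_Epo 1 to 3, a rise of 1.39 ± 0.23 (adjusted p = 0.000719). In contrast Ccl8, which acts on CCR8 and in part on other CC receptors, was at 12.3, 15.6 and 12.7 CPM in KC_EV 1 to 3 and 4.05, 6.37 and 5.60 CPM in KC_Epo 1 to 3. Its groups did not overlap in the other direction, with a log2 fold change of -1.34 ± 0.19 (adjusted p = 0.000262). All 4 calls held under every alternative setting run.

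The other inflammatory CC ligands, which attract monocytes, macrophages and T cells, were split as well. Ccl3 (MIP-1alpha) stood at 211, 207 and 209.8 CPM in KC_EV 1 to 3 and 137, 153 and 139 CPM in KC_Epo 1 to 3, and Ccl4 (MIP-1beta) at 98.2, 96.9 and 106 CPM in KC_EV 1 to 3 and 38.5, 45.1 and 42.5 CPM in KC_Epo 1 to 3. Both were lower in all 3 KC_Epo libraries, with log2 fold changes of -0.55 ± 0.07 (adjusted p = 0.000128) for Ccl3 and -1.26 ± 0.08 (adjusted p = 7.51e-07) for Ccl4. Ccl5 (RANTES), made mostly by T and NK cells but also by macrophages, was at 29.9, 37.3 and 33.7 CPM in KC_EV 1 to 3 and 20.8, 33.6 and 26.6 CPM in KC_Epo 1 to 3. Its groups overlapped and it did not pass, at -0.32 ± 0.17 (adjusted p = 0.182); without KC_Epo 2, its highest KC_Epo library, it passed at -0.50 (adjusted p = 0.00985), as it did with library sizes in place of TMM factors, at -0.48 (adjusted p = 0.0447). Summed T and NK cell markers were 107 to 127 in KC_EV against 84.2 to 119 CPM in KC_Epo, and their part in Ccl5 was not tested. Ccl6, a CCR1 ligand of mouse macrophages, was at 568, 514 and 518 CPM in KC_EV 1 to 3 and 1239, 1202 and 1180.3 CPM in KC_Epo 1 to 3, with close agreement within each group and a rise of 1.18 ± 0.07 (adjusted p = 5.96e-07). Its neighbour Ccl9, also a CCR1 ligand, was at 51.4, 55.5 and 56.7 CPM in KC_EV 1 to 3 and 87.5, 63.2 and 70.5 CPM in KC_Epo 1 to 3 and rose less, by 0.43 ± 0.11 (adjusted p = 0.0114). The call for Ccl9 was lost without KC_EV 1 (0.40, adjusted p = 0.0625) and with library sizes in place of TMM factors (0.28, adjusted p = 0.0925); without KC_EV 1 and KC_Epo 1 together it held at 0.24 (adjusted p = 0.025).

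These CC genes lie in clusters, and direct neighbours moved in the same direction in some places and in opposite directions in others. In RefSeq order, Ccl2, Ccl7 and Ccl12 were higher and Ccl8, next to Ccl12, was lower. In the second cluster Ccl9 and Ccl6 were higher, and the adjacent Ccl3 and Ccl4 were lower. In the cluster of Ccl22, Cx3cl1 and Ccl17 all 3 values were below 0, and Cx3cl1 did not pass. In the receptor cluster direct neighbours differed in direction: Ccr3 was higher and Ccr2 lower.

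**Figure D3:**
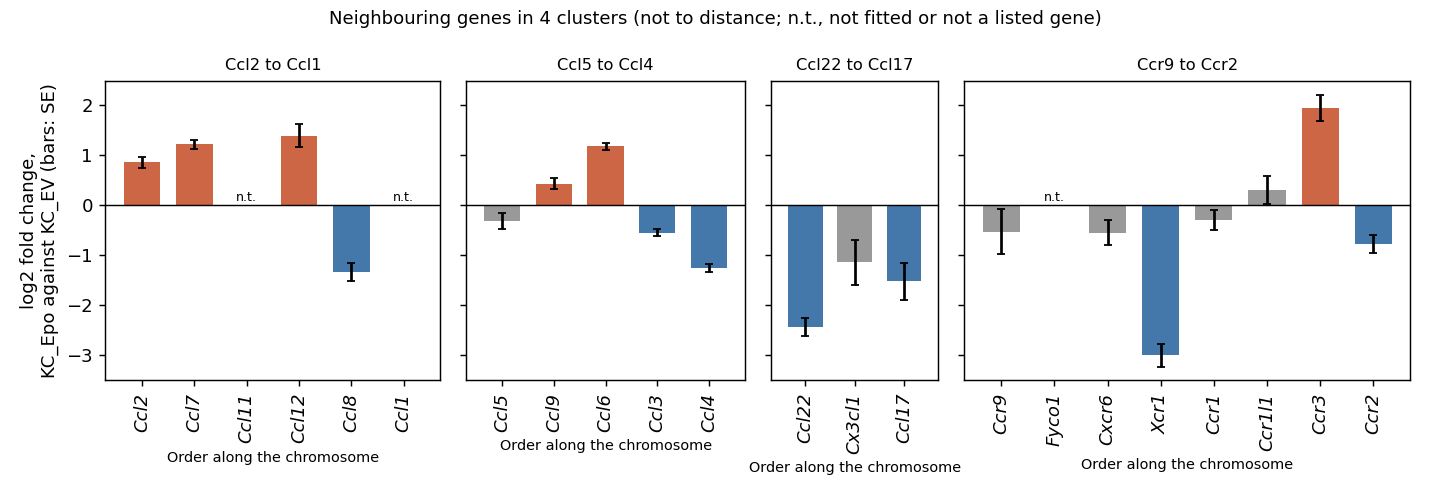
Log2 fold change (y axis, bars for SE) of genes in 4 clusters, in their order along the chromosome (x axis, not to distance); red bars passed as higher, blue bars as lower, and grey bars did not pass. Ccl8 is the only called fall beside 3 called rises in its cluster, and Ccr2, which is lower, stands beside Ccr3, which is higher.

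Of the regulatory and homeostatic CC ligands, 7 were members and 5 were tested. Ccl24 (eotaxin-2), which attracts eosinophils through CCR3, was at 174, 183 and 178 CPM in KC_EV 1 to 3 and 304, 409.7 and 373 CPM in KC_Epo 1 to 3. All KC_Epo libraries lay above all KC_EV libraries, a rise of 1.03 ± 0.10 (adjusted p = 2.08e-05). Summed Kupffer cell markers were higher too, at 36456 to 39311 in KC_EV against 53972 to 62103 CPM in KC_Epo. The part of this shift in Ccl24 and Ccl6 was not tested. Ccl22, a ligand of CCR4 made by dendritic cells and macrophages, was at 12.1, 14.6 and 13.4 CPM in KC_EV 1 to 3 and 2.18, 2.32 and 2.87 CPM in KC_Epo 1 to 3, and its lowest KC_EV library was 12.1 CPM against a highest of 2.87 CPM in KC_Epo. Its log2 fold change was -2.45 ± 0.18 (adjusted p = 2.18e-06), the second lowest among the tested genes here after Ackr4. Ccl17, the other CCR4 ligand, had 2.83 ± 0.842 in KC_EV against 0.983 ± 0.226 CPM in KC_Epo (SD, n = 3) and a log2 fold change of -1.52 ± 0.37 (adjusted p = 0.00821). Without KC_EV 3 this call was lost (-1.25, adjusted p = 0.0594). Markers of mature dendritic cells, which make both ligands, fell in 7 of 9 tested cases and rose in 0; of the 10 listed, Slco5a1 and Arhgap28 were at 0 in at least 1 library. Fscn1, an actin-bundling protein of mature dendritic cells, was at 80.6 ± 7.10 in KC_EV against 29.5 ± 8.02 CPM in KC_Epo. Il4i1, another marker of the list, did not pass at 0.11 ± 0.15 (adjusted p = 0.595), nor did the receptor Ccr7, which mature dendritic cells carry. The wider dendritic cell list had 5 of 11 lower and 2 higher, with sums of 726 to 773 in KC_EV against 763 to 777 CPM in KC_Epo. Cadm1, at 184 ± 12.8 in KC_EV against 209 ± 13.3 CPM in KC_Epo, was the largest part of these sums and did not pass. Among the 5 that were lower, Zbtb46 was at 39.9 ± 3.04 in KC_EV against 13.4 ± 5.87 CPM in KC_Epo. Flt3, also lower, was at 8.17 ± 1.22 in KC_EV against 2.89 ± 1.20 CPM in KC_Epo. The part of mature and other dendritic cells in Ccl22 and Ccl17 was not tested. Ccl25, a ligand of CCR9 in the gut and thymus, was at 5.95 ± 1.03 in KC_EV against 8.34 ± 1.33 CPM in KC_Epo and did not pass (adjusted p = 0.0768), though it passed without KC_Epo 1, at 0.62 (adjusted p = 0.0288). Ccl27a, a skin chemokine whose near-identical copy can share its reads, was at 1.56 ± 0.354 in KC_EV against 1.65 ± 0.557 CPM in KC_Epo and did not pass. Ccl28, with 43 counts in KC_EV and 4 in KC_Epo, and Ccl20, with 21 and 8 counts, were too low to be tested.

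The 2 detected ligands of CXCR3, the receptor of activated T and NK cells, were both lower. Cxcl9, induced by interferon gamma, was at 70.2, 83.1 and 80.0 CPM in KC_EV 1 to 3 and 47.4, 33.4 and 42.0 CPM in KC_Epo 1 to 3, with a log2 fold change of -0.93 ± 0.12 (adjusted p = 0.000374). Cxcl10, induced by both types of interferon, was at 156, 155 and 155 CPM in KC_EV 1 to 3 and 111, 80.8 and 93.6 CPM in KC_Epo 1 to 3. The 3 KC_EV libraries agreed closely and all KC_Epo libraries were below them, with a log2 fold change of -0.71 ± 0.10 (adjusted p = 0.000324). Both calls held under every alternative. Exons of Cxcl10 overlap those of Art3 on the opposite strand in GENCODE M21 (GRCm38), by 133 bases; Art3 had a log2 fold change of -1.54, and whether counting used the strand is not given.

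Of 3 tested ligands of CXCR2, which bring in neutrophils, 1 passed. Cxcl2 was at 69.8, 72.4 and 79.5 CPM in KC_EV 1 to 3 and 49.9, 67.7 and 61.6 CPM in KC_Epo 1 to 3 and passed narrowly as lower, at -0.31 ± 0.11 (adjusted p = 0.0445). Its groups did not overlap, but the call was lost without any 1 of KC_EV 1, 2 and 3 and KC_Epo 1 and 3, where the log2 fold change was -0.34, -0.32, -0.25, -0.19 and -0.32, and with limma-voom (adjusted p = 0.0558) or a non-robust edgeR fit (adjusted p = 0.0597). Cxcl1 stood at 10.03 ± 1.48 in KC_EV against 7.65 ± 0.591 CPM in KC_Epo (SD, n = 3) and did not pass (-0.39 ± 0.16, adjusted p = 0.0867); it passed without KC_EV 1, at -0.50 (adjusted p = 0.0414), without KC_EV 1 and KC_Epo 1 together, at -0.58, and with library sizes, at -0.55. Cxcl3 held 34 counts in KC_EV and 29 in KC_Epo and did not pass, and Cxcl15, with 35 and 13 counts, was not tested. CXCR2 itself, a neutrophil receptor, had 22 and 10 counts and was not tested either. Neutrophil markers summed to 255 to 572 in KC_EV against 288 to 366 CPM in KC_Epo, and 0 of 11 passed the test, with 1 at an unadjusted p under 0.05. Csf3r alone was at 247, 243 and 260 CPM in KC_EV 1 to 3, most of the sum in KC_EV 1. Ngp and Elane differed widely within KC_EV, at 0.693, 44.0 and 89.4 CPM and at 0.315, 19.0 and 37.3 CPM in KC_EV 1 to 3. With such a spread, the lack of calls does not show equal levels.

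The remaining CXC and CX3C ligands were lower or did not pass. Cxcl13, which draws B cells and follicular T cells through CXCR5, was at 545, 401 and 442 CPM in KC_EV 1 to 3 and 231, 224 and 226 CPM in KC_Epo 1 to 3. It fell to 227 ± 3.67 CPM (SD, n = 3), a log2 fold change of -1.03 ± 0.10 (adjusted p = 2.56e-05), and the KC_EV libraries spread more than the KC_Epo libraries. Cxcl16, a membrane-bound ligand of CXCR6 that also takes up oxidised lipid, was at 371, 352 and 353 CPM in KC_EV 1 to 3 and 235, 263 and 277 CPM in KC_Epo 1 to 3 with a log2 fold change of -0.47 ± 0.08 (adjusted p = 0.000693). Its exons overlap the antisense gene Zmynd15 by 552 bases, and Zmynd15 had a log2 fold change of -1.31. Cxcl14, an epithelial and stromal chemokine, passed narrowly at 7.55 ± 0.591 in KC_EV against 5.04 ± 1.05 CPM in KC_Epo (-0.59 ± 0.20, adjusted p = 0.044). That call was lost without any 1 of KC_EV 1, 2 and 3 and KC_Epo 1 and 3, where the log2 fold change was -0.52, -0.63, -0.60, -0.41 and -0.67, and without KC_EV 1 and KC_Epo 1 together (-0.37, adjusted p = 0.181). Markers of cholangiocytes, the bile duct epithelium, summed to 46.8 to 90.8 in KC_EV against 16.8 to 24.9 CPM in KC_Epo, with 5 of 7 lower and 0 higher, and those of stellate cells and fibroblasts to 124 to 138 in KC_EV against 39.9 to 98.2 CPM in KC_Epo, with 4 of 10 lower and 0 higher; their part in Cxcl14 was not tested. Cxcl12, the ligand of CXCR4 made mostly by stromal and endothelial cells, was at 8.29, 9.81 and 7.11 CPM in KC_EV 1 to 3 and 11.7, 4.47 and 7.20 CPM in KC_Epo 1 to 3 and did not pass. KC_Epo 1, the highest of its group for Cxcl12, also had the highest hepatocyte sum, at 21754 CPM against 6398 and 13046 CPM in KC_Epo 2 and 3. In the same order, its sinusoidal endothelial sum was 3115 CPM against 1905 and 2385 CPM and its stellate cell and fibroblast sum 98.2 CPM against 39.9 and 66.8 CPM, again the highest of the group; the part of these cells in Cxcl12 was not tested. Cx3cl1, the membrane-bound fractalkine, was at 1.83 ± 0.662 in KC_EV against 0.831 ± 0.305 CPM in KC_Epo, and it did not pass (-1.15 ± 0.46, adjusted p = 0.0733).

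**Figure D4:**
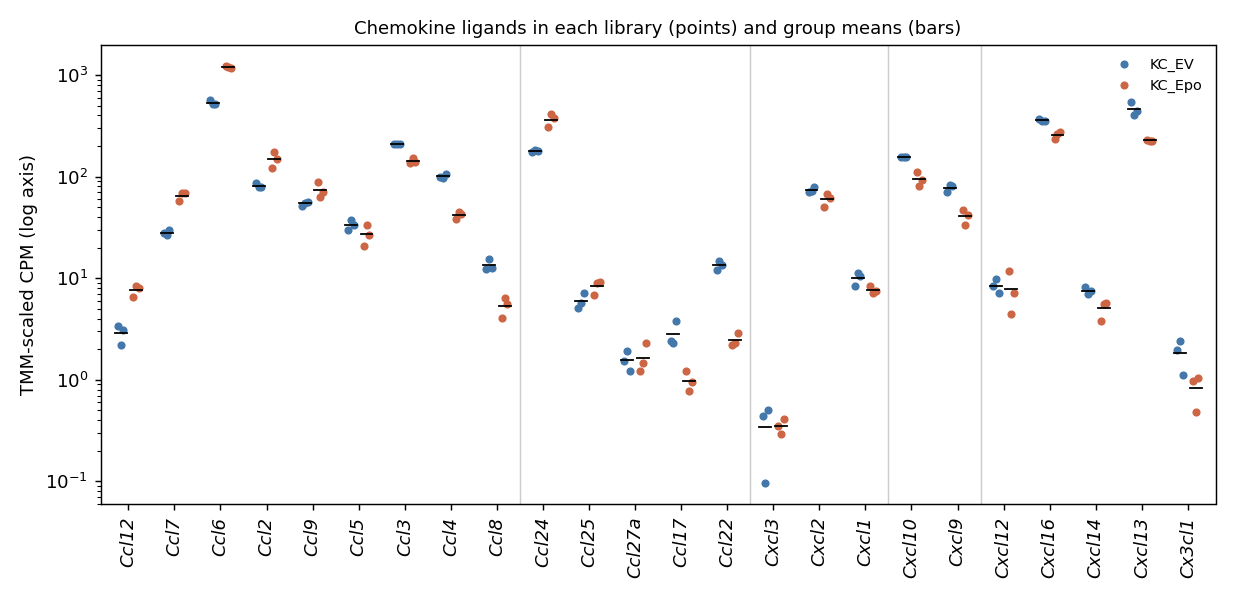
TMM-scaled CPM (y axis, log scale) of the 24 tested ligands (x axis, by role) in each KC_EV and KC_Epo library (points), with group means (bars). Ccl6 is the highest in KC_Epo, at 1180.3 to 1239 CPM, and the groups lie apart for Ccl6, Ccl24, Ccl4, Ccl22 and Cxcl13.

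Among the receptors that couple to G proteins, Ccr3 and Cxcr3 were higher and Ccr2 and Cxcr4 lower. Ccr3, the eotaxin receptor of eosinophils and basophils, was at 11.03, 7.48 and 11.7 CPM in KC_EV 1 to 3 and 28.2, 49.6 and 39.3 CPM in KC_Epo 1 to 3. The lowest KC_Epo library was more than 2-fold above the highest KC_EV library, with a log2 fold change of 1.95 ± 0.26 (adjusted p = 0.00251). Mast cell and basophil markers summed to 10.97 to 14.1 in KC_EV against 4.25 to 6.68 CPM in KC_Epo, and of 2 tested members 1 (Gata2) was lower and 0 were higher. Most of this sum was Gata2 itself, at 11.1 ± 1.69 in KC_EV against 4.38 ± 1.63 CPM in KC_Epo. The other tested marker, Mcpt8, was at 0.691 ± 0.0544 in KC_EV against 0.472 ± 0.269 CPM in KC_Epo and did not pass (adjusted p = 0.458). Eosinophil genes were looked at after the values of Ccr3 were seen, and of these Siglecf and Epx had no row under their symbols. Prg2 had 6 counts in KC_EV and 12 in KC_Epo and was not tested. Il5ra did not pass, at 0.830 ± 0.344 in KC_EV against 0.572 ± 0.264 CPM in KC_Epo. The part of eosinophils, mast cells and basophils in Ccr3 was not tested. Cxcr3 was at 3.03, 4.25 and 4.51 CPM in KC_EV 1 to 3 and 6.36, 8.46 and 9.98 CPM in KC_Epo 1 to 3, and all KC_Epo libraries were above all KC_EV libraries (1.07 ± 0.23, adjusted p = 0.00416). Of 13 tested T and NK cell markers 0 were higher and 2 lower (Lck and Cd2), and Cd3e was at 8.86 ± 0.593 in KC_EV against 8.38 ± 2.14 CPM in KC_Epo. Plasmacytoid dendritic cells, which also carry CXCR3, had marker sums of 109.8 to 115 in KC_EV against 90.5 to 97.6 CPM in KC_Epo. Most of this sum was Tcf4, at 91.8 ± 3.02 in KC_EV against 73.0 ± 4.78 CPM in KC_Epo. Of the 7 markers 2 were lower (Tcf4 and Spib), 1 was higher (Ccdc162) and 4 did not pass, Siglech among them. The part of these cells and of T and NK cells in Cxcr3 was not tested.

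Ccr2, the receptor of Ccl2 on blood monocytes, was at 33.8, 37.3 and 39.9 CPM in KC_EV 1 to 3 and 27.0, 15.7 and 22.0 CPM in KC_Epo 1 to 3. The groups did not overlap, and the log2 fold change was -0.78 ± 0.18 (adjusted p = 0.0124); the call was lost narrowly without KC_EV 3 (adjusted p = 0.0505) and without KC_Epo 3 (adjusted p = 0.0559), at -0.72 and -0.79. Of 10 monocyte markers 3 were higher, among them Plac8 and Vcan, and 1 lower (F13a1), and Ly6c2, a surface protein of inflammatory monocytes, was at 14.4 ± 3.66 in KC_EV against 10.6 ± 0.740 CPM in KC_Epo (adjusted p = 0.0641); the part of monocytes in Ccr2 was not tested. Cxcr4, which holds leukocytes in tissues rich in Cxcl12, was at 66.8, 82.7 and 88.8 CPM in KC_EV 1 to 3 and 51.8, 43.2 and 50.4 CPM in KC_Epo 1 to 3 with a log2 fold change of -0.71 ± 0.11 (adjusted p = 0.000669). The other 8 tested receptors of this kind did not pass. Ccr1, a receptor of Ccl3, Ccl6 and Ccl9, was at 7.66, 11.95 and 9.70 CPM in KC_EV 1 to 3 and 9.54, 6.53 and 7.88 CPM in KC_Epo 1 to 3, and of the alternatives it passed only without KC_EV 1 and KC_Epo 1 together, at -0.60 (adjusted p = 0.0291). Ccr7, the lymph node homing receptor, was at 18.3, 25.7 and 22.4 CPM in KC_EV 1 to 3 and 15.5, 24.5 and 20.7 CPM in KC_Epo 1 to 3, and Cx3cr1, the fractalkine receptor of monocytes, at 11.3, 9.33 and 7.87 CPM in KC_EV 1 to 3 and 6.46, 8.33 and 8.38 CPM in KC_Epo 1 to 3. In both the groups overlapped. Cxcr6, the receptor of Cxcl16 on T and NKT cells, was at 4.57, 7.29 and 4.72 CPM in KC_EV 1 to 3 and 3.37, 4.44 and 3.51 CPM in KC_Epo 1 to 3, without overlap and without passing (-0.55 ± 0.25, adjusted p = 0.111). Cxcr5, the receptor of Cxcl13 on B cells, was at 4.22, 4.41 and 4.601 CPM in KC_EV 1 to 3 and 2.47, 6.56 and 4.24 CPM in KC_Epo 1 to 3, so that KC_Epo libraries lay on both sides of KC_EV. Ccr1l1, Ccr6 and Ccr9 had adjusted p-values of 0.443, 0.614 and 0.391, and Ccr8, with 40 and 12 counts, was not tested.

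**Figure D5:**
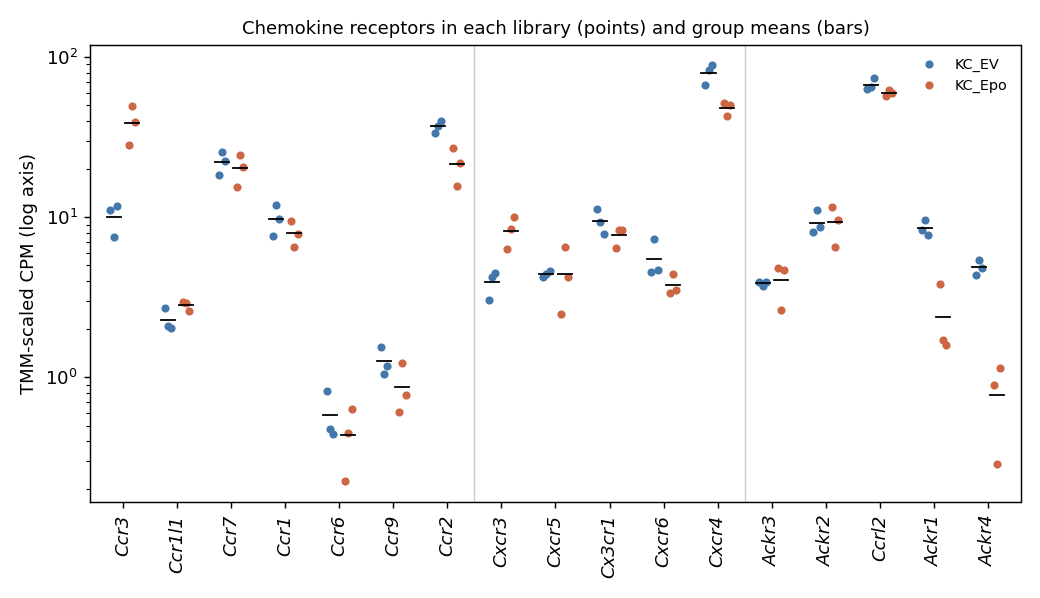
TMM-scaled CPM (y axis, log scale) of 17 of the 18 tested receptors (x axis; G protein-coupled CC, then CXC and CX3C, then atypical) in each library (points) with group means (bars). Ccr3 lies apart upwards and Ackr1 and Ackr4 lie apart downwards.

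Of the 5 atypical receptors, 2 were lower and 0 higher. Ackr4, which scavenges Ccl19, Ccl21 and Ccl25, was at 4.35, 5.40 and 4.84 CPM in KC_EV 1 to 3 and 0.899, 0.289 and 1.14 CPM in KC_Epo 1 to 3, 6.27-fold lower on the means, with a log2 fold change of -2.67 ± 0.41 (adjusted p = 0.000475). Ackr1 (DARC), a chemokine binder of red cells and venous endothelium, was at 8.29, 9.59 and 7.79 CPM in KC_EV 1 to 3 and 3.85, 1.70 and 1.59 CPM in KC_Epo 1 to 3, with a log2 fold change of -1.83 ± 0.31 (adjusted p = 0.00138). In both, KC_EV and KC_Epo libraries did not overlap, and the calls held under every alternative. Sinusoidal endothelial markers were lower in 13 of 16 cases and higher in 0, among them Gpr182, itself an atypical chemokine receptor, at -1.28 ± 0.33 (adjusted p = 0.0448); their part in Ackr1 and Ackr4 was not tested. Red cell markers, in contrast, were higher in 7 of 7 tested cases. Ackr1 shares exon sequence with Cadm3 on its own strand and Ackr4 with Acad11 on the other, and these had log2 fold changes of -0.85 and 0.41. Ackr2, a scavenger of inflammatory CC chemokines, was at 8.07, 11.1 and 8.67 CPM in KC_EV 1 to 3 and 11.7, 6.53 and 9.66 CPM in KC_Epo 1 to 3, and Ackr3, a scavenger of Cxcl12, at 3.94, 3.71 and 3.95 CPM in KC_EV 1 to 3 and 4.82, 2.64 and 4.69 CPM in KC_Epo 1 to 3. For both the groups overlapped and the sign of the fitted value turned with the scaling. Ccrl2, which presents chemerin rather than chemokines, was at 67.3 ± 5.77 in KC_EV against 59.7 ± 2.80 CPM in KC_Epo, without overlap, and passed only with other scalings: -0.23 with upper-quartile factors (adjusted p = 0.0448) and -0.33 with library sizes only (adjusted p = 0.00747).

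Read by ligand and receptor, pairs had calls in the same direction, in opposite directions or on 1 side only. Ccl24 and its receptor Ccr3 were both higher. Ccl2, Ccl7 and Ccl12 were higher while Ccr2 was lower. Likewise Cxcl9 and Cxcl10 were lower while Cxcr3 was higher. Cxcl13 and Cxcl16 were lower and their receptors Cxcr5 and Cxcr6 did not pass, and Cxcr4 was lower while Cxcl12 did not pass. The values of Cxcr6 and Cxcl12, at -0.55 and -0.11, had the same sign as those of Cxcl16 and Cxcr4. Ligand and receptor were counted in the same RNA, so a pair can lie on 1 cell type or on several.

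To compare levels between genes, CPM was divided by exon length from GENCODE M21 (all 47 genes matched). Per kilobase of exon, the highest mean levels in KC_EV were Cxcl13 at 402 ± 64.4 CPM, Ccl6 at 297 ± 16.7 CPM and Ccl3 at 273 ± 2.48 CPM (SD, n = 3). Ccl6 and its neighbour in that order, Ccl3, differed by less than 2 SD of Ccl6. In KC_Epo the order was Ccl6 at 673 ± 16.7, Ccl24 at 279.9 ± 41.4, Cxcl13 at 197 ± 3.19 and Ccl3 at 187 ± 11.8 CPM per kilobase, of which Cxcl13 and Ccl3 differed by less than the sum of their SDs.

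Other genes of the pathway were read from 3 lists. Of 64 tested genes of signalling below the receptors, 9 were higher and 14 lower. In all 35.9% passed, a share near the 32.3% of all genes tested. The counts were 4 and 8 without KC_EV 2, 5 and 7 without KC_EV 3, 5 and 11 without KC_Epo 2 and 5 and 4 without KC_Epo 3. Calls over all genes, 4234 in the main fit, numbered 2919, 3010, 3974 and 2728 in these fits, in the same order. With library sizes in place of TMM factors the list had 4 higher and 25 lower, and all genes had 1194 higher and 3611 lower. Pik3r5, a regulatory subunit of the PI3 kinase that G proteins activate, stood at 198 ± 13.01 in KC_EV against 86.0 ± 4.03 CPM in KC_Epo and had a log2 fold change of -1.20 ± 0.08 (adjusted p = 5.96e-07). Rgs1, which shortens G protein signals, was higher at 466 ± 15.9 in KC_EV against 728 ± 26.9 CPM in KC_Epo (0.64 ± 0.07, adjusted p = 4.02e-05). Tiam1, an activator of Rac in cell movement, was lower at 15.4 ± 1.69 in KC_EV against 2.71 ± 1.12 CPM in KC_Epo (-2.50 ± 0.26, adjusted p = 6.48e-05). The G protein subunit Gnai2 was at 756 ± 10.4 in KC_EV against 814 ± 108 CPM in KC_Epo and Arrb2, an arrestin that takes receptors inside, at 1005 ± 40.2 in KC_EV against 898 ± 18.0 CPM in KC_Epo, and neither passed. Of 20 tested genes that process or present chemokines, 5 were higher and 3 lower, 40% in all against 32.3% of all genes tested. Sdc3, a heparan sulfate proteoglycan, had a log2 fold change of 0.86 ± 0.08 (adjusted p = 1.2e-05), and the proteases Mmp14 and Mmp9 had values of -0.70 ± 0.07 and -1.77 ± 0.20 (adjusted p = 2.55e-05 and 5.72e-05). Dpp4, which trims the ends of several chemokines, passed as lower at -1.30 ± 0.30 (adjusted p = 0.0342).

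Chemokines and chemokine-like receptors that the symbol rule leaves out made the third list, with 3 of 15 higher and 3 lower. In all 40% passed, against 32.3% of all genes tested. Xcr1, the receptor of cross-presenting dendritic cells, was at 10.97, 9.94 and 10.5 CPM in KC_EV 1 to 3 and 1.48, 0.965 and 1.46 CPM in KC_Epo 1 to 3, a log2 fold change of -3.01 ± 0.22 (adjusted p = 2.18e-06). Of 11 dendritic cell markers 5 were lower (Flt3, Zbtb46, Cd209a, Itgae and Dpp4), with log2 fold changes from -1.57 to -1.05. The test called 2 higher, among them Wdfy4 at 0.40. Clec9a, at 67.8 ± 1.46 in KC_EV against 69.0 ± 2.23 CPM in KC_Epo, did not pass (adjusted p = 0.811), nor did Cadm1 and Batf3. The part of dendritic cells in Xcr1 was not tested. The ligand of Xcr1, Xcl1, made by T and NK cells, was at 1.74 ± 0.133 in KC_EV against 1.91 ± 1.15 CPM in KC_Epo and did not pass (adjusted p = 0.814). The platelet chemokine Pf4 was at 23.4, 22.2 and 24.5 CPM in KC_EV 1 to 3 and 33.8, 39.5 and 33.5 CPM in KC_Epo 1 to 3, a rise of 0.61 ± 0.10 (adjusted p = 0.000661), while Ppbp, its platelet neighbour, did not pass at 4.65 ± 0.687 in KC_EV against 4.46 ± 1.61 CPM in KC_Epo. Summed platelet markers, which include both genes, were 37.3 to 40.0 in KC_EV against 52.8 to 58.2 CPM in KC_Epo. Pf4 made up most of this sum, so the sum is not a separate reading beside Pf4. Of 7 tested platelet markers 3 were higher (Pf4, Gp1bb and Gp9), 0 were lower and 4 did not pass, Itga2b and Ppbp among them. The part of platelets in Pf4 was not tested. Cmklr1, the chemerin receptor, rose by 0.83 ± 0.09 (adjusted p = 2.7e-05). Cd74, a receptor for Mif and the chaperone of MHC class II, was at 5794 ± 171 in KC_EV against 2280.4 ± 493 CPM in KC_Epo, a log2 fold change of -1.35 ± 0.14 (adjusted p = 0.000125), and Mif was at 69.1 ± 6.05 in KC_EV against 69.7 ± 11.5 CPM in KC_Epo without passing.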

How the data were processed

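The authors deposited raw counts of reads per gene symbol, whole numbers with no normalization, for 6 libraries. Library preparation used polyA selection and a stranded TruSeq kit, per the labels' protocols. STAR 2.7.3a, HTSeq 0.11.2, Bowtie2 2.5.1, FastQC 0.11.8 and the build GRCm39 appear in the submitters' processing notes, with neither role nor order; the sources used here do not give counting options.

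Of 15458 rows, 12 repeated a symbol, none a chemokine gene; a symbol was left to its row of higher sum. A quasi-likelihood F test (edgeR 4.0.16 in R 4.3.3; TMM, filterByExpr, robust, two-sided, no block) was fitted to 13120 genes, with Benjamini-Hochberg adjustment and a threshold of 0.05; standard errors came from the F statistic. Depth was 23201076 to 33280754 counts per library, and libraries within a group differed beyond sampling noise (smallest chi-square per gene 6.15). The procedure was tested on simulated counts.

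Called genes reaching 5 CPM in a group, and their ligands or receptors at 1 CPM or more, were described in full; of each pathway list the 3 genes with the smallest adjusted p, and Pf4, Ppbp, Xcl1 and Xcr1, were named. Gnai2, Arrb2, Dpp4, Mif, Gpr182 and the marker genes named lie outside that rule and were chosen after their values were seen. Members and lists were chosen with earlier results of these data known.

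Alternatives changed the size factors (RLE, upper quartile, library sizes, library sizes less 3 gene groups), the filter, the robust fit, the block or the tool (DESeq2 1.42.0, limma-voom 3.58.1), or left out each library; a fit without both KC_EV 1 and KC_Epo 1 was chosen after seeing the data. A gene of the set and a marker gene are not reported here and enter only counts and sums. Exon lengths, overlaps and promoters came from GRCm38 annotation.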

Additional observations from a re-analysis of the deposited data

How the results depend on the processing

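The total of 24 genes that passed stayed within 1.5 times under each alternative (20 to 28), as did the 9 higher (8 to 10) and 15 lower (11 to 20). Over all genes, 52.4% of calls were higher; this share was 40.6% under upper-quartile scaling. It was 24.8% with library sizes only, where the median log2 fold change of all genes was -0.163. With library sizes only, 8 members were higher and 20 lower; in values that include this shift, Ccl9 was at 0.28 and lost its call, and the added calls of Ccl5 (-0.48), Ccrl2 (-0.33), Cx3cl1 (-1.30), Cxcl1 (-0.55) and Cxcr6 (-0.71) were all lower. For the signalling list, 9 higher became 5 under upper-quartile scaling, or 4 from library sizes, whether of all genes or less hepatocyte, erythroid and immunoglobulin genes, and 14 lower became 25 with both of these. The block gave 16 calls in that list. Leaving out each library gave 9 to 29 calls in that list, 4 to 13 higher and 4 to 16 lower. Over all genes the same fits gave 2728 to 4557 calls, against 4234 in the main fit. The cause was not tested.

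The fit with the replicate block gave 24 members, 9 higher and 15 lower; it dropped Cxcl14 (-0.60, adjusted p = 0.0863) and added Ccl5 (-0.34, adjusted p = 0.0468), and changed no other call of a member. Deviations of same-numbered libraries correlated at -0.108, -0.148 and -0.0407, so the numbers were not taken as pairs.

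Signs turned only in genes that did not pass. Ackr2 was -0.060, -0.15, -0.14, -0.0088, -0.020, -0.031 and -0.30 with upper-quartile factors, library sizes only, library sizes without the 3 gene groups, the 1 CPM filter, the replicate block, limma-voom and without KC_EV 1 and KC_Epo 1. Cxcr5 was -0.057, -0.16, -0.15, -0.0075, -0.093 and -0.11 in the first 6 of these. Ackr3 was -0.092 and -0.074 with both library size settings, -0.012 with limma-voom and -0.089 without both libraries. Ccl27a was -0.087 and -0.072, Cxcl3 -0.060, -0.15 and -0.13, and Ccr6 0.21 without both. As each library was left out, values ranged from -0.20 to 0.21 (Ackr2), -0.082 to 0.31 (Ackr3), -0.21 to 0.26 (Ccl27a), -0.29 to 0.040 (Ccr7), -0.53 to 0.18 (Cxcl12), -0.43 to 0.37 (Cxcl3) and -0.40 to 0.30 (Cxcr5). Members with few counts, such as Ccr8, Ccl20, Ccl28, Cxcl15 and Cxcr2, are limited by depth.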

Other observations

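The 6 rows that matched the symbol rule but held fewer than 20 counts were Ccl1, Ccl19, Ccl26, Ccr4, Ccr10 and Cxcl5. Ccr4, the receptor of Ccl17 and Ccl22, had 13 counts in KC_EV and 2 in KC_Epo. Ccl19, a ligand of CCR7, had 10 and 2 counts, and Cxcl5, a neutrophil attractant, 15 and 1. Ccl1, a ligand of CCR8, had 12 and 6 counts, Ccl26, an eotaxin, 5 and 1, and Ccr10, a skin-homing receptor, 9 and 7. Counting error covers much of such values, and they were not compared.

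Summed over the 27 ligands, the level was 2337 to 2521 CPM in KC_EV and 2728 to 2865 CPM in KC_Epo. Without Ccl6, which had the largest share of the sum in KC_Epo, it was 1822 to 1953 CPM in KC_EV and 1488 to 1663 CPM in KC_Epo, so that the direction turned.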
